A study of Mus musculus with 8 samples.

Results

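The oncofetal genes Igf2bp1, Igf2bp2, Igf2bp3, Lin28a, Lin28b, Hmga1 and Hmga2 were followed in cardiomyocytes of newborn mice. They were chosen by symbol, as members of gene families known to be high in fetal and low in adult tissue, and all 7 were found among 48440 entries of the count table. The table held 8 libraries of purified cardiomyocytes from C57BL6/J pups of postnatal day 2. Each of 4 litters contributed 1 heart of either sex. All groups shared strain, age and cell preparation, no treatment or engineered allele was named, and sex and litter were the contrasts available. Nothing older or younger than postnatal day 2 was measured, so the decline with age could not be examined here. With 2 libraries, a litter has little replication, and pups of 1 litter share a dam.

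LIN28A and LIN28B are RNA-binding proteins that hold back the maturation of let-7 microRNAs, in part by recruiting enzymes that add uridine to the let-7 precursor. Mature let-7 pairs through its seed with the 3′ untranslated regions (UTRs) of target mRNAs and lowers them, and Lin28b, Hmga2 and Igf2bp1 are textbook targets. IGF2BP proteins bind mRNAs, including Igf2, and affect their stability and translation, while HMGA proteins bend AT-rich DNA and shape chromatin. In the heart, these families are known from development, when cardiomyocytes still divide.

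The let-7 seed and its matches are shown first, because they are the sequence feature that the 7 genes share. Mouse let-7 and its relatives carry 1 seed, and 13 mature entries of 11 names in RefSeq (GRCm38.p6) had the bases GAGGUAG at positions 2 to 8. Capitals mark the seed in 4 of them, written 5′ to 3′.
let-7a-5p: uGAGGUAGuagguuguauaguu
let-7d-5p: aGAGGUAGuagguugcauaguu
let-7g-5p: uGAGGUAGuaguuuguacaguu
miR-98-5p: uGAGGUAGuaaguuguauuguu

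The letters CTACCTC, which pair with that seed, were searched on the transcript strand of the longest annotated 3′ UTR of each gene (GENCODE M21, GRCm38). All 7 genes held them, with 17 matches in total, of which 9 had an A after the last C (CTACCTCA) and 8 did not. Among 21020 genes with an annotated 3′ UTR, 9.03% held the 7 letters and 3.06% the 8 letters, with a median UTR of 961 bases against 1183 to 6337 bases in these genes. A match is a description of the letters and shows no binding. The match nearest the stop codon is given for each gene, with the 7 letters in capitals, 5′ to 3′ on the transcript.
Lin28a: tgcacagcctgttgaaCTACCTCattttt
Lin28b: cacccgggcgggaagtCTACCTCatgcaa
Igf2bp1: tgctgtgcgaagtaaaCTACCTCaaggtg
Igf2bp2: aacacacaaataaaagCTACCTCaggtgt
Igf2bp3: gtgcatttttactcaaCTACCTCaggtat
Hmga1: ctcctctgttcacaaaCTACCTCtggacg
Hmga2: cgccgacattcaatttCTACCTCagcatc

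These matches lie at chr4:134005190-134005196 for Lin28a, chr10:45381023-45381029 for Lin28b, chr11:95961779-95961785 for Igf2bp1, chr16:22059474-22059480 for Igf2bp2 and chr6:49086788-49086794 for Igf2bp3, all on the minus strand of GRCm38. That of Hmga1 lies at chr17:27563292-27563298 on the plus strand, and that of Hmga2 at chr10:120364225-120364231 on the minus strand. Igf2bp1, Lin28b and Hmga2 each held 4 matches, and Lin28a held 2. UTR length bears on such counts, so each gene was set beside other 3′ UTRs within 20% of its own length. At least 4 matches were present in 0.178% of UTRs as long as that of Igf2bp1, in 0.157% of those as long as that of Lin28b and in 0.089% of those as long as that of Hmga2. The single matches of Igf2bp2, Igf2bp3 and Hmga1 were less unusual, since 12.0%, 13.2% and 8.04% of UTRs of their lengths held at least 1. Hmga1 was the only one of the 7 genes without the 8-letter form.

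**Figure D1:**
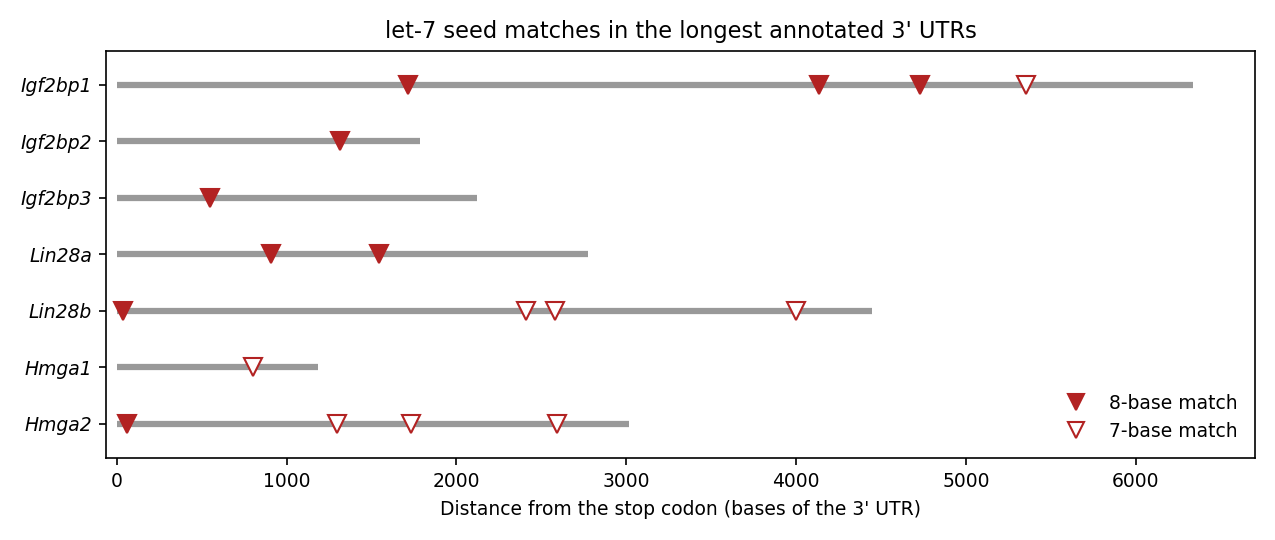
Positions of the letters CTACCTC in the longest annotated 3′ UTR of each gene, with the distance from the stop codon in bases on the horizontal axis and the UTR as a grey bar. Filled triangles mark the 9 matches of 8 letters and open triangles the 8 matches of 7 letters. Lin28b and Hmga2 each have an 8-letter match close to the stop codon.

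Total counts ran from 14226342 to 24910243 per library, and 13771 genes had enough counts to be tested. The cardiomyocyte label was checked against marker genes fixed for 8 cell types. The 10 cardiomyocyte markers summed to between 69135 and 93448 CPM (read counts adjusted for library total with TMM scaling), the fibroblast markers to between 33.1 and 251 CPM and the endothelial markers to between 18.6 and 167 CPM. The mural list, which includes Acta2, summed to between 897 and 1515 CPM, and the erythroid list to between 98.5 and 531 CPM. No marker found in the table was at 0 in every library. Both libraries of litter 3 stood apart from the rest. Their cardiomyocyte markers summed to 69135 and 69414 CPM against 81652 to 93448 CPM elsewhere, and their fibroblast markers to 33.1 and 53.7 CPM against 113 to 251 CPM. The cardiomyocyte genes did not all move together. Myh6 averaged 16495 CPM in litter 3 against 25413 elsewhere, and Actc1 8505 against 13508 CPM. Nppa went the other way, at 1342 against 289 CPM, and of the 10 genes 1 was higher and 5 were lower. In bulk libraries, fewer cells of a type and less RNA per cell cannot be told apart.

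Lin28a was not detected. It lies at chr4:134003330-134018841 on the minus strand, and it had 0 counts in all 8 libraries. A floor of 3 counts allows up to 0.120 CPM in the male of litter 1, the deepest library, and up to 0.211 CPM in the female of litter 3, the shallowest. Its paralog Lin28b, at chr10:45376620-45486395 on the minus strand, was low but present in every library. Lin28b had 4.05 and 3.95 CPM in the male and female of litter 1, 3.53 and 4.04 CPM in litter 2, 6.46 and 5.91 CPM in litter 3, and 4.13 and 2.85 CPM in litter 4. Both libraries of litter 3 were above all 6 others, and males and females overlapped. These values rest on 68 to 149 counts per library, so that counting error alone gives a coefficient of variation of 10.3%, against 27.6% observed. Set against a floor of 3 counts over all libraries together, Lin28b was at least 110-fold higher than Lin28a in counts per length of annotated exon.

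The 3 Igf2bp genes, which encode closely related RNA-binding proteins, were all expressed. Igf2bp1, at chr11:95957163-96005940 on the minus strand, had 9.75 and 12.9 CPM in the male and female of litter 1, 12.0 and 9.84 CPM in litter 2, 11.2 and 13.2 CPM in litter 3, and 8.93 and 10.5 CPM in litter 4. The female of litter 3 was highest and the male of litter 4 lowest, and no litter or sex was apart from the others. Igf2bp2, the family member known to stay expressed in many adult tissues, lies at chr16:22059009-22163299 on the minus strand. It had 35.4 and 37.1 CPM in the male and female of litter 1, 43.7 and 36.3 CPM in litter 2, 40.9 and 41.9 CPM in litter 3, and 30.4 and 38.3 CPM in litter 4. The males of litters 2 and 4 gave its highest and lowest values, so its spread was wider in males, at 37.6 ± 5.91 CPM, than in females, at 38.4 ± 2.49 CPM (SD, n = 4 each; the difference in spread was not tested).

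Igf2bp3, at chr6:49085223-49214957 on the minus strand, had 26.2 and 26.9 CPM in the male and female of litter 1, 29.7 and 24.5 CPM in litter 2, 33.5 and 32.8 CPM in litter 3, and 28.5 and 23.2 CPM in litter 4. As for Lin28b, both libraries of litter 3 were above all 6 others, and the sexes overlapped. Its level is uncertain, because 33.7% of 100-base windows of its longest transcript also occur in Malsu1, a gene on the opposite strand that overlaps 18.7% of its exon bases, and whether reads were counted by strand is not given in the sources used here. Malsu1 had 20.6 and 21.7 CPM in litter 3, within the 15.6 to 23.5 CPM of the other libraries.

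Hmga1 was the most even of the genes. It lies at chr17:27556497-27563674 on the plus strand and encodes a DNA-binding architectural protein. It had 32.9 and 34.5 CPM in the male and female of litter 1, 35.0 and 37.6 CPM in litter 2, 36.7 and 34.2 CPM in litter 3, and 37.4 and 39.4 CPM in litter 4. Litter 4 held the female with the highest value and litter 1 the male with the lowest, and the ranges of the sexes overlapped. Of its windows, 59.9% also occur in Hmga1b, a near-identical copy, so reads of both cannot be separated with certainty. Hmga2, the relative known as a let-7 target in many tissues, lies at chr10:120361275-120476469 on the minus strand. It had 5 and 6 counts in the male and female of litter 1, 11 and 4 in litter 2, 4 and 0 in litter 3, and 2 and 4 in litter 4. These 36 counts correspond to 0.192 ± 0.130 CPM (SD, n = 8), and 6 of 8 libraries were above the floor of 3 counts. Hmga2 had too few counts for the main test, and with no filter on low counts its edgeR adjusted p-values were 0.959 by sex and 0.786 by litter.

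**Figure D2:**
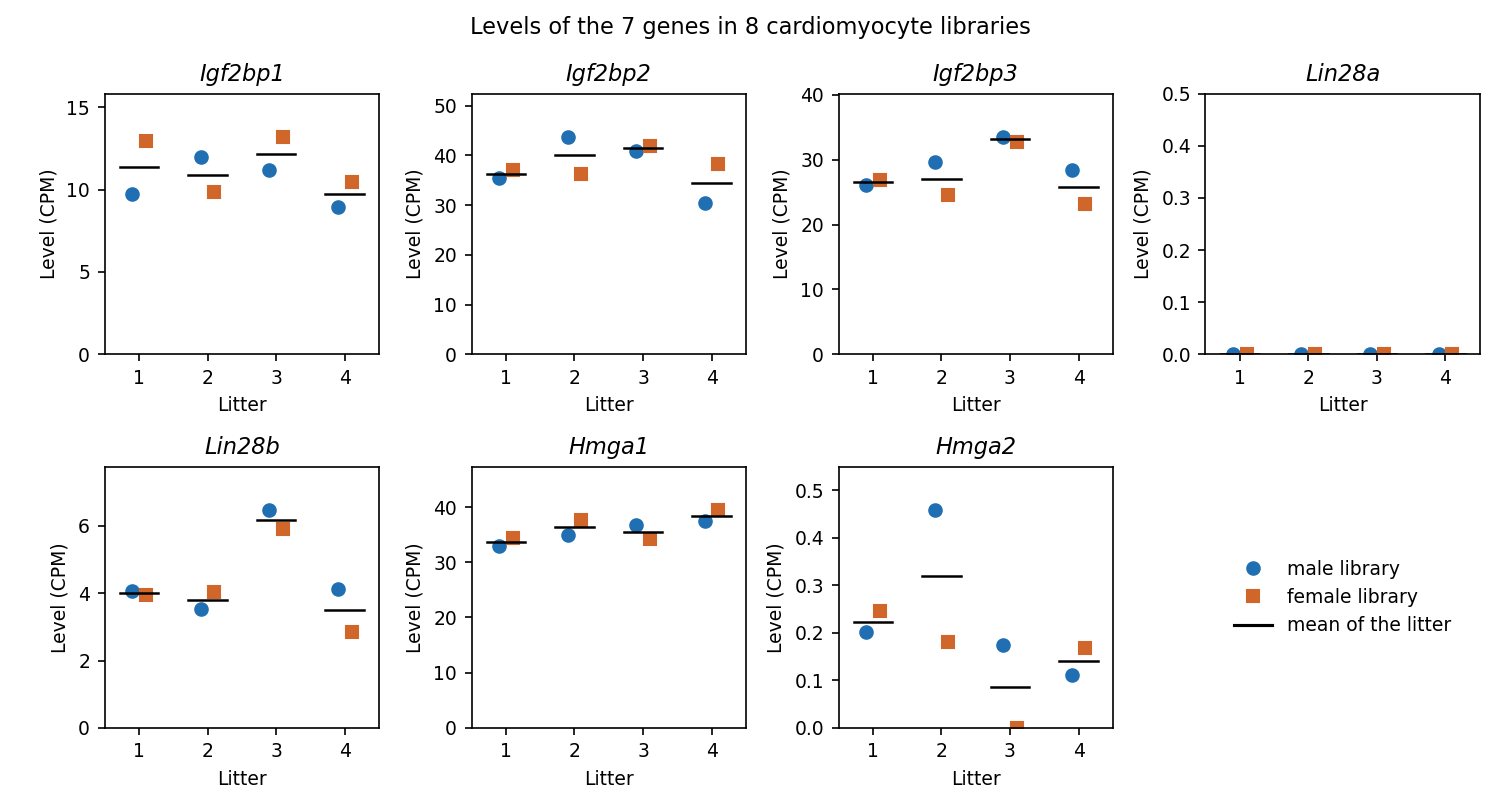
Level of each gene in CPM on a linear axis from 0, by litter, with blue circles for male libraries, orange squares for female libraries and a bar at the mean of each litter. Lin28b and Igf2bp3 are highest in the 2 libraries of litter 3, Hmga1 varies least, Hmga2 stays below 0.5 CPM and Lin28a is at 0 throughout.

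Levels of different genes were compared per kilobase of annotated exon. Hmga1 had 16.9 ± 1.02 CPM per kilobase, Igf2bp2 5.14 ± 0.570, Igf2bp3 3.45 ± 0.454, Igf2bp1 1.14 ± 0.161, Lin28b 0.482 ± 0.133 and Hmga2 0.0284 ± 0.0191 (SD, n = 8 each), with Lin28a below them at 0. From Hmga1 down to Hmga2, ranges over libraries of neighbours in this order did not overlap, while Hmga2 met Lin28a at 0 in the female of litter 3. Igf2bp2 and Igf2bp3 nearly met, both at 4.11 to 3 digits, for the lowest library of the one and the highest of the other. With the length of the longest transcript in place of all exons the order was the same, but Igf2bp2 at 7.68 ± 0.852 and Igf2bp3 at 6.48 ± 0.853 CPM per kilobase lay within their spread of each other. Among 13314 tested genes with a known length, Hmga1 ranked at percentile 83.7, Igf2bp2 at 55.9, Igf2bp3 at 46.0, Igf2bp1 at 24.6 and Lin28b at 13.3. The Hmga pair was the most uneven of those detected, with Hmga1 597-fold above Hmga2 per length, or 357-fold by longest transcript.

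Within the Igf2bp family, Igf2bp2 made up 52.8 ± 2.72% of the summed level per kilobase, Igf2bp3 35.5 ± 3.01% and Igf2bp1 11.7 ± 1.02% (SD, n = 8). The share of Igf2bp2 ran from 48.2% in the male of litter 4 to 56.9% in the female of that litter, and that of Igf2bp3 from 31.2% to 40.9% in the same pair with the order turned round. By longest transcript the mean shares were 49.6%, 41.9% and 8.51%. The make-up of the family was thus similar from library to library, with Igf2bp1 always the smallest share.

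The genes also differed in how steady they were. The coefficient of variation over 8 libraries was 6.01% for Hmga1, 11.1% for Igf2bp2, 13.2% for Igf2bp3, 14.1% for Igf2bp1 and 27.6% for Lin28b. Low counts vary more, so each was set beside tested genes within 2-fold of its count. Of those, 10.4% were less variable than Hmga1, against 55.8% for Igf2bp1, 63.7% for Igf2bp2, 71.0% for Igf2bp3 and 71.7% for Lin28b. Hmga1 was therefore steadier than most genes of its abundance, while the others lay in the middle or upper part of the range.

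The first contrast asked whether levels differ between male and female cardiomyocytes. None of the 5 tested genes passed in edgeR's quasi-likelihood test, where 0.0436% of all genes tested did (6 of 13771). Log2 fold changes, male minus female, were -0.15 (95% interval -0.46 to 0.17) for Igf2bp1, -0.03 (-0.28 to 0.22) for Igf2bp2, 0.14 (-0.13 to 0.41) for Igf2bp3, 0.13 (-0.44 to 0.70) for Lin28b and -0.04 (-0.22 to 0.14) for Hmga1. The male was the higher of a litter in 3 of 4 litters for Igf2bp3 and Lin28b, and in 1 of 4 for Igf2bp1, Igf2bp2 and Hmga1. Unadjusted p-values ran from 0.283 to 0.812, so 0 of the 5 were under 0.05, and DESeq2 called 0 as well. The intervals still allowed a male excess of up to 0.70 for Lin28b, the least precise of the 5, but of no more than 0.14 for Hmga1. With litter as a block, which raised the count over all genes to 29 (0.211%), again none of the 5 passed, with adjusted p-values from 0.490 to 0.896. The limits were then tighter, at 0.44 for Lin28b (-0.21 to 0.44) and 0.09 for Hmga1 (-0.17 to 0.09).

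The second contrast was between litters. Lin28b passed the test of any difference among the 4 litters (edgeR adjusted p = 0.0297), as did 32.1% of all genes tested, so 1 of 5 is not above that background. Its litter means were 4.00 ± 0.0751, 3.79 ± 0.362, 6.19 ± 0.387 and 3.49 ± 0.903 CPM in litters 1 to 4 (SD, n = 2), a range of 0.84 on the log2 scale. Without litter 3 its adjusted p was 0.774, where 13.7% of genes passed. The call was also lost in DESeq2 (0.0940), after thinning to the smallest total (0.0698), and when the male of litter 1 (0.0542), that of litter 3 (0.173) or the female of litter 3 (0.124) was left out. Igf2bp3, at 26.5 ± 0.540, 27.1 ± 3.69, 33.1 ± 0.506 and 25.8 ± 3.72 CPM, lay just outside the threshold (adjusted p = 0.0516). Hmga1, Igf2bp1 and Igf2bp2 had adjusted p-values of 0.320, 0.410 and 0.231.

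The third contrast set litter 3 against the average of litters 1, 2 and 4, and it was chosen because earlier results of these data had put that litter apart. In it 28.3% of all genes tested passed, 13.6% higher and 14.8% lower, that is 1871 and 2032 genes. Scaling by library size only gave 2419 higher and 1698 lower. Lin28b was higher in litter 3 by 0.73 on the log2 scale (SE 0.17, 95% interval 0.36 to 1.09, edgeR adjusted p = 0.00762). Igf2bp3 was higher by 0.32 (SE 0.08, 95% interval 0.14 to 0.51, adjusted p = 0.0138). For both, the 2 libraries of litter 3 lay above the 6 others, as for 15.1% of all genes tested. The count of 2 of 5 was larger than the 13.6% higher in the background, but 5 genes are too few to set these apart.

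Igf2bp1 and Igf2bp2 had positive values that did not pass, 0.19 (95% interval -0.10 to 0.48, adjusted p = 0.307) and 0.17 (-0.04 to 0.38, 0.210). With 1 library left out they ran from 0.11 to 0.30 and from 0.10 to 0.25. Hmga1 had -0.02 (-0.17 to 0.13, 0.863), or 0.02 with library size alone, and its interval was the narrowest of the 5. For Hmga2, 4 and 0 counts in litter 3 stood against 2 to 11 counts elsewhere. When 1 library of litter 3 was left out, the other was assumed to vary like the rest, and Lin28b kept its size but not the call, at 0.72 without the male (adjusted p = 0.0791) and 0.73 without the female (0.0602). Igf2bp3 lost its call without the female of litter 3 (0.25, adjusted p = 0.171).

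**Figure D3:**
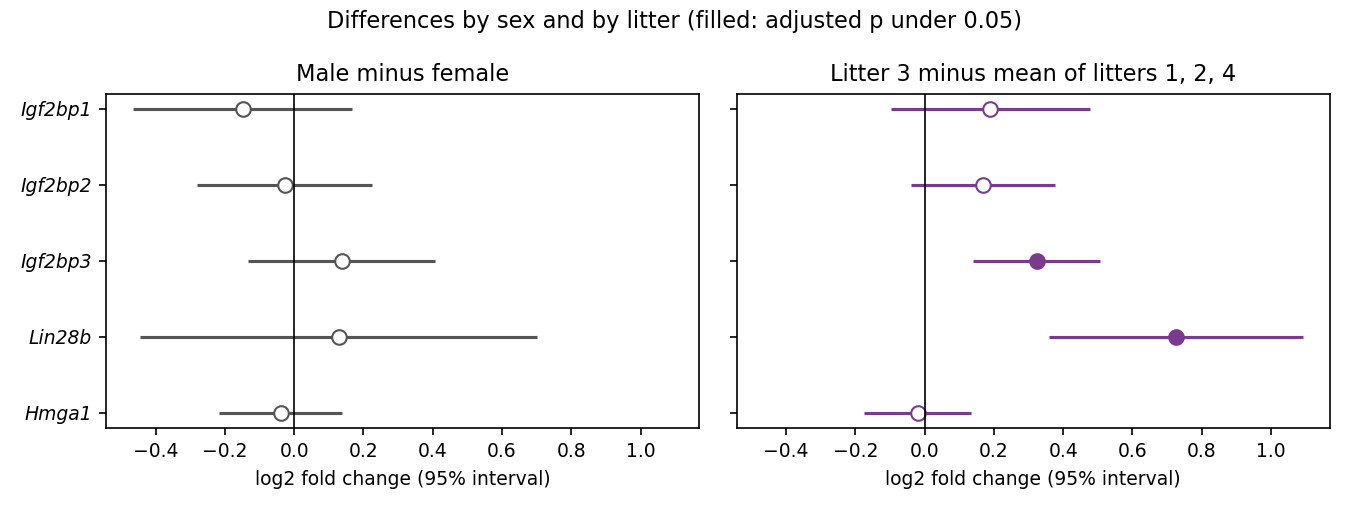
Log2 fold changes with 95% intervals for the 5 tested genes, male minus female on the left and litter 3 minus the mean of litters 1, 2 and 4 on the right, with filled points for an adjusted p under 0.05. No point is filled by sex, and by litter Lin28b at 0.73 and Igf2bp3 at 0.32 are.

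Across the 8 libraries the pattern of Igf2bp3 was most like that of Lin28b among these genes (Pearson r = 0.84 of log2 CPM), followed by Igf2bp1 with Igf2bp2 (r = 0.76). The other 8 pairs ran from -0.41, for Igf2bp1 with Hmga1, to 0.46. Libraries of a litter are not independent, and a high r can rest on litter 3 alone, so these are descriptions. Among 11152 genes with a mean of at least 50 counts, those most like Lin28b were Mbnl2 (r = 0.995), which encodes a splicing regulator of the muscleblind family, Plcb4 (0.990), a phospholipase, and Cmas (0.984), an enzyme of sialic acid metabolism. For Igf2bp3 they were Avl9, Ptrhd1 and Arl5b (0.98 each). For Igf2bp2 they were Daglb, Zbtb49 and Rgp1 (0.96 each), for Igf2bp1 Cdan1 (0.92), Fam188b (0.90) and Parp12 (0.88), and for Hmga1 Scube1 (0.99), Fastk (0.98) and Hlcs (0.97). By rank correlation in place of Pearson r, none of the 3 genes most like Lin28b and Hmga1 was kept. For Igf2bp3, Avl9 and Ptrhd1 tied for the third place by rank (rho = 0.976).

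Related genes were described through 9 lists with 115 different tested genes, of which 0 passed by sex in edgeR or DESeq2, with 2 at an unadjusted p under 0.05, against 306 of 13771 over all genes. Mature let-7, which is too short for libraries of this kind, was not measured. The 12 entries named for let-7 or miR-98 genes held 66 counts in all libraries together, 7 at most in one library, and 4 of them had none. Of the let-7 precursor and host gene list, 4 genes were tested, and 0 passed in litter 3 in edgeR or DESeq2, or had an unadjusted p under 0.05, although 1 was lower when the male of litter 4 was left out. In litter 3, 28.3% of all genes passed in edgeR, and 5498 of 13771 had an unadjusted p under 0.05. The let-7 hosts Wdr82 and Huwe1 had log2 fold changes of -0.05 (edgeR adjusted p = 0.545) and -0.16 (0.136). Huwe1 passed the edgeR test among all litters (adjusted p = 0.0173), as did 32.1% of all genes.

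Genes of let-7 processing and RNA decay were tested in 15 cases, of which 6 rose and 1 fell in litter 3, against 13.6% and 14.8% of all genes, with a median of 0.08 against 0.00 over all genes. Prkra, a Dicer partner, rose by 0.30 (SE 0.08, edgeR adjusted p = 0.0182), from 21.2 ± 1.35 CPM (SD, n = 6) in other litters to 26.2 ± 0.447 CPM (n = 2). Trim25, a cofactor reported in LIN28A-driven uridylation, rose by 0.28 (SE 0.09, 0.0270). Dgcr8, the partner of Drosha in the nuclear step, fell by 0.51 (SE 0.08, 0.000786), from 38.2 ± 1.55 to 26.8 ± 2.10 CPM. The other 4 genes that passed upward, named after their values were seen, were Ago1 with 0.25 (0.0220), Dis3l2, an exonuclease, with 0.27 (0.0272), and the uridylating enzymes Zcchc11 (Tut4) with 0.24 (0.00898) and Zcchc6 (Tut7) with 0.20 (0.0419). Papd4 (Tent2), another such nucleotide-adding enzyme, had 0.20 and did not pass (0.113). Most of these calls were lost in other fits. Leaving out the male of litter 3 gave 1 gene of the list higher, leaving out its female gave 0, leaving out the female of litter 1 gave 2, and DESeq2 gave 1, while Dgcr8 fell in all 4 of these fits. Fewer of all genes were higher in these 4 fits as well. There were 1321 of 13771 in DESeq2 and 1485 of 13880 without the female of litter 1, against 1871 of 13771 in the main fit. The sizes of Prkra, Trim25, Dis3l2, Zcchc11 and Zcchc6 stayed positive, while Ago1 was not followed in other fits. Prkra had 0.37, 0.24 and 0.31 without the male, without the female and in DESeq2, Trim25 had 0.30, 0.26 and 0.29, and Dis3l2 had 0.36, 0.18 and 0.28. Zcchc11 had 0.24, 0.24 and 0.25. Zcchc6 had 0.30 without the male but 0.11 without the female. Its call was lost in DESeq2 (adjusted p = 0.0904), and in edgeR after thinning (0.0523) and with no sex term (0.0721). It was also lost without either library of litter 1, the female of litter 2 or either library of litter 4.

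Known let-7 target genes outside the family moved in both directions. Of 21 tested, 6 rose and 4 fell in litter 3, where 13.6% and 14.8% of all genes did, so the count of lower genes was near the background. The median was -0.11, but it turned positive when the female of litter 2 (0.04) or that of litter 3 (0.08) was left out. Myc, a growth-promoting transcription factor, rose by 0.67 (SE 0.18, edgeR adjusted p = 0.0175) and Arid3a by 0.59 (SE 0.20, 0.0484), while Ccnd1, a G1 cyclin, fell by 0.93 (SE 0.25, 0.0153) and Dna2, a nuclease of DNA replication, by 0.82 (SE 0.14, 0.00133). Without the female of litter 3 the counts were 0 higher and 2 lower, without its male 3 and 3, and without the male of litter 1 they were 2 and 4.

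Partners of IGF2BP in ribonucleoprotein granules gave 7 higher and 2 lower of 14, with a median of 0.15 and against the same 13.6% and 14.8% over all genes. Ybx3, a cold-shock RNA-binding protein, rose by 0.72 (SE 0.05, edgeR adjusted p = 3.36e-06), from 232 ± 32.6 to 379 ± 12.6 CPM, and Fmr1 rose by 0.36 (SE 0.07, 0.00232). G3bp1, a stress granule protein, fell by 0.38 (SE 0.06, 0.00121) and the helicase Dhx9 by 0.21 (SE 0.06, 0.0187). Leaving out the male of litter 3 gave 4 higher and leaving out its female 2, with Fmr1 then at 0.29 (adjusted p = 0.0690). Of 16 genes that write, erase or read N6-methyladenosine, the RNA mark that IGF2BP proteins are reported to bind, 3 rose and 2 fell, which is close to the shares of all genes. Alkbh5, a demethylase, rose by 0.21 (0.0149) and Ythdf3, a reader, by 0.23 (0.0223), whereas Hnrnpa2b1 fell by 0.61 (1.99e-05) and Hnrnpc by 0.29 (0.00785). Leaving out the male of litter 3 gave 0 higher, leaving out its female or the male of litter 1 gave 1, and scaling by library size only gave 6.

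Of 10 RNAs known to be bound by IGF2BP proteins, 4 rose and 0 fell in litter 3, against 13.6% and 14.8% of all genes, with a median of 0.10, or 2 and 0 when either library of litter 3 was left out. Some genes were lower in other fits, 2 without the male of litter 2, 1 with a mean of at least 50 counts and 1 after thinning. The rises included Myc, which the let-7 target list holds as well, and Cd44, a cell surface receptor, by 0.56 (SE 0.13, edgeR adjusted p = 0.00661). Igf2, the fetal growth factor whose mRNA gave the family its name, averaged 684 CPM and had 0.12 in litter 3 (0.172), although it passed the test among all litters (0.00495). H19, transcribed beside Igf2, had 0.04 (0.731) and also passed among all litters (0.000111). Of 12 genes of the imprinted fetal growth network, which includes both, 5 rose and 1 fell, against the same shares of all genes. Mest rose by 0.96 (SE 0.11, 9.40e-05) and Peg3 by 0.67 (SE 0.08, 0.000109), while Dlk1 fell by 1.39 (SE 0.40, 0.0230) and reached no more than 1.21 CPM in any library. No gene of this list was lower in DESeq2, after thinning or without the male of litter 1, while 5 were higher in each of these fits. With a mean of at least 50 counts, 11 of the 12 genes were tested. Dlk1, with 6 to 30 counts per library, was not among them. The median of the list was 0.17 in the main fit, 0.11 without the male of litter 3 and 0.17 without its female. The HMGB and HMGN genes, which encode other architectural chromatin proteins, gave 0 of 7 past the threshold in litter 3 in edgeR and DESeq2, where 28.3% of all genes passed in edgeR. At an unadjusted p under 0.05 there were 2 of 7, against 5498 of 13771 over all genes. With no filter on low counts, or without the male of litter 4, 1 was higher, and 1 was lower when the female of litter 3 or that of litter 4 was left out.

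In litter 3, the dividing-cell genes went the other way from Lin28b. All 20 genes of the G2/M and mitosis list fell in litter 3, where 14.8% of all genes were lower, with a median of -1.83. The median was -1.41 without the male of litter 3 and -2.07 without its female. Ccnb1, the mitotic cyclin, fell by 2.42 (SE 0.20, edgeR adjusted p = 9.17e-06) and the kinetochore motor Cenpe by 2.26 (SE 0.14, 1.42e-06). Both libraries of litter 3 were lowest in the summed level of the list, with 122 and 174 CPM against 330 to 750 CPM elsewhere. Litter 3 thus had the highest Lin28b and Igf2bp3 and the lowest mitotic transcripts of the 4 litters, while Hmga1 had -0.02. The other litters did not show this opposition. Their summed levels were 750 and 627 CPM in litter 1, 440 and 440 CPM in litter 2, and 330 and 348 CPM in litter 4. Their Lin28b means were 4.00, 3.79 and 3.49 CPM.

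Levels of other cell types moved with litter 3 as well. The fibroblast list had 8 of 10 genes lower, the endothelial list 7 of 10 and the mural list 5 of 8, where 14.8% of all genes were lower. Mural markers summed to 897 and 920 CPM against 1337 to 1515. Most of that sum was Acta2, at 356 against 882 CPM, and Abcc9, at 479 against 453 CPM, which did not pass (edgeR adjusted p = 0.290). Endothelial markers summed to 19.98 and 20.97 CPM against 18.6 to 167, so that a library of another litter was lowest and litter 3 did not stand apart in this sum. The epicardial list summed to 23.5 and 23.6 CPM against 14.3 to 19.5, with 1 of 6 tested genes higher and 2 lower. Most of that sum was Tbx18, at 21.2 against 11.9 CPM, while Aldh1a2 fell by 2.01 (edgeR adjusted p = 0.00967) and Msln by 1.29 (0.0481), both under 1 CPM on average. By sum, the Schwann and neural list had 181 and 208 CPM against 125 to 144, with 1 of 2 higher, and the erythroid list 185 and 531 CPM against 98.5 to 246, with 2 of 6 higher. The cardiomyocyte list had 1 of 10 genes higher and 5 lower. By sex with litter as a block, 6 of 10 fibroblast genes, 1 of 10 endothelial genes and none of the other cell type lists passed in edgeR. Of all genes, 0.211% did. Without the block 0 of either list passed, with median log2 fold changes, male minus female, of 0.75 and -0.72. The part of these cell types, and of mitotic activity, in the values of Lin28b and Igf2bp3 was not tested, and litter cannot be told apart from the day of preparation, for which the labels give nothing.

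**Figure D4:**
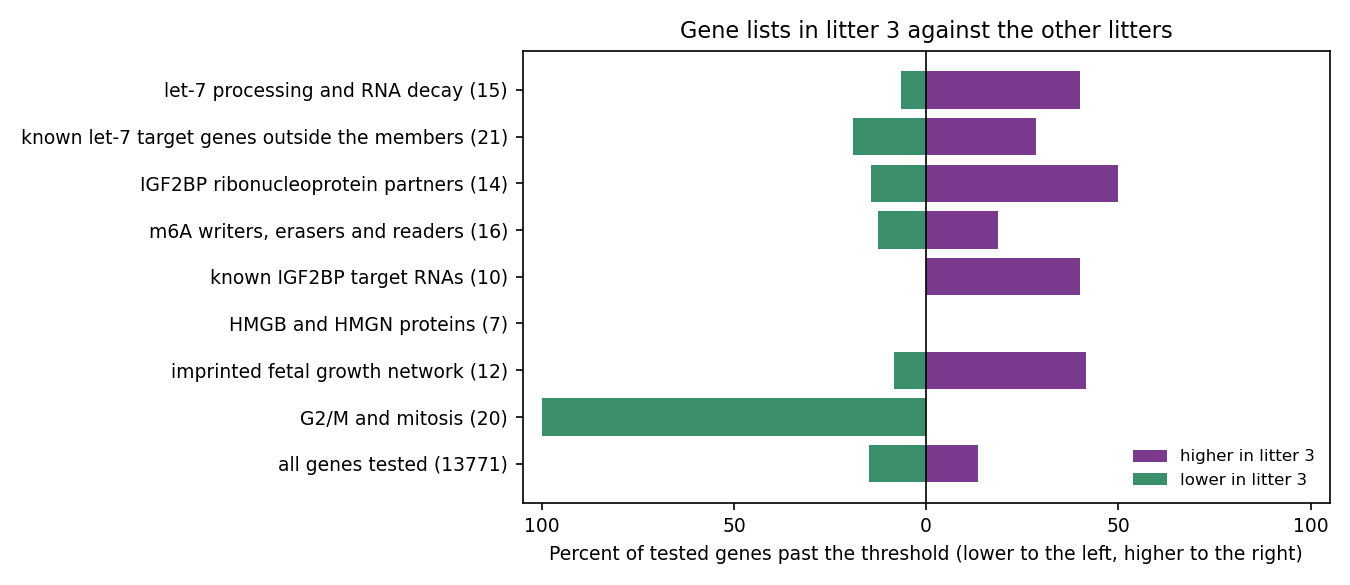
Percent of tested genes in each list that passed the comparison of litter 3 with the other litters, higher to the right and lower to the left, with the number tested in brackets and all 13771 genes at the bottom. The G2/M list is lower in full, the HMGB and HMGN list has no call, and the other lists drawn hold both directions or higher genes only. The let-7 precursor and host genes, with 4 tested and no call, are not drawn.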

How the data were processed

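Counts per gene symbol were deposited by the authors as 1 table of whole numbers, not normalized, for 8 libraries. Per the labels' protocols, 1 µg of total RNA entered a stranded total RNA kit for single-end sequencing of 100 bases, although the labels name poly(A) RNA as the molecule. Reads were aligned to mm10 with STAR 2.7.3a, per the submitters' processing notes. The annotation and the strand setting of counting are not given in the sources used here.

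The 7 genes, the lists and litter 3 as a contrast were chosen with earlier results of these data known. Genes were filtered with filterByExpr on sex and scaled with TMM in edgeR 4.0.16 (R 4.3.3), and tested with its quasi-likelihood F test, with Benjamini-Hochberg adjustment over all 13771 genes at a threshold of 0.05. Sex was tested without other terms (6 residual degrees of freedom), and litter with sex as a term (3). Alternatives were DESeq2 1.42.0, other scalings and filters, thinning, no sex term, leaving out libraries, and litter as a block. The labels give the litter of each heart, which pairs the 2 libraries of a litter. Their deviations from the means of their sexes correlated over genes at 0.506, 0.503, 0.696 and 0.367 in litters 1 to 4. Chi-square per degree of freedom between libraries of a sex was at least 10.4, so no library repeated another. P-values by sex measure the spread between hearts of a sex. With litter as a block, and in the litter tests, they measure the spread between the 2 hearts of a litter. Litter 3 has no replicate litter, so its p-values do not measure how litters vary. Intervals are 95%, and floors and counting errors cover counting only.

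Named genes are the 7 members, from each list up to 2 that rose and 2 that fell most in litter 3 among those past the threshold, and for each tested member the 3 genes with the highest Pearson r of log2 CPM (prior count 2). Besides these, Malsu1, Wdr82, Huwe1, Igf2 and H19 are named as background. Ago1, Zcchc11, Zcchc6, Papd4, Dis3l2, Tbx18, Aldh1a2, Msln, Acta2, Abcc9, Myh6, Actc1 and Nppa were named after their values were seen. Lengths, positions and UTRs are from GENCODE M21 on GRCm38, which may differ from the authors' annotation. Older symbols were matched through RefSeq synonyms. Scripts were tested on simulated counts.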

Additional observations from a re-analysis of the deposited data

How the results depend on the processing

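The count of genes differing by sex was 6, or 29 with litter as a replicate block, and leaving out 1 library at a time gave 5 to 7. Without litter 3, an alternative chosen after seeing the data, it was 8. Genes differing among litters numbered 4427, or 1898 without litter 3, and 2964 to 4097 with 1 library left out. The 3903 genes of litter 3 became 1704 to 3791 with 1 library left out, the low values being 2234 without the male and 1704 without the female of litter 3. By sex, signs of small values changed when 1 library was left out, from -0.118 to 0.0552 for Igf2bp2, -0.0894 to 0.322 for Lin28b and -0.0747 to 0.00189 for Hmga1. In litter 3, Hmga1 ran from -0.116 to 0.0648 and was 0.0247 with library size alone. In litter 3, Lin28b passed in 13 of 15 alternatives (adjusted p from 8.84e-05 to 0.0791) and Igf2bp3 in 14 of 15 (0.00176 to 0.171). Among all litters they passed in 10 of 16 and 6 of 16, Igf2bp3 among others with library size alone (0.0197) and with no filter (0.0124). Igf2bp2 passed only without the female of litter 2 among litters (0.0485), and without the male of litter 2 in litter 3 (0.0448). The cause was not tested. Depth limits Hmga2 and Lin28a. Lin28b rests on 68 to 149 counts per library, and for every gene tested a litter holds 2 libraries. Read counts without molecular identifiers are not independent molecules.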
